A study of Rattus norvegicus with 10 samples.

Results

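The genes described here encode the secretory proteases and the IgE receptor of mast cells, together with the enzyme that makes histamine. The names searched were *Cpa3*, *Cma1*, *Tpsb2*, *Mcpt1*, *Mcpt2*, *Fcer1a*, *Ms4a2* and *Hdc*, and every probe set annotated to one of them alone, by its current or former symbol, was kept. This gave 9 probe sets of the 31042 tested, for 8 genes of the 14217 named by a probe set. One of the 8 is *Mcpt1l1*, whose former symbol is *Mcpt1*, and *Ms4a2* has 2 probe sets. No probe set carried the symbol *Mcpt2* alone, and the names rMCP-2 and rMCP-II of that protease are listed as synonyms of the gene now called *Mcpt1*.

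The study asked how the mammary glands of rats that are susceptible or resistant to estrogen induced mammary cancer differ. RNA of whole mammary glands from 5 ACI rats and 5 Brown Norway (BN) rats was hybridized to Affymetrix Rat Genome arrays, each rat having an array of its own. The ACI rats are of the substrain ACI/SegHsd. All of the females were 9 weeks of age when implants releasing 17β-estradiol (E2) were placed under the skin, and all carried them for 12 weeks, so no untreated gland enters the comparison. No sorting of cells is described, so epithelium, fat, vessels and any lymphoid tissue share each RNA sample. The values are log2 expression per probe set from the authors' GCRMA summary, in which 2.23 is the lowest value.

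Mast cells are tissue resident cells of the hematopoietic lineage that store histamine, proteoglycans and proteases in granules. Antigen that crosslinks IgE on their high affinity receptor, a complex of an alpha chain (*Fcer1a*), a beta chain (*Ms4a2*) and paired gamma chains (*Fcer1g*), leads to release of the granule contents and to synthesis of lipid mediators. In rodents the proteases differ between the mast cells of connective tissue, which hold carboxypeptidase, chymase and tryptase, and those of mucosa, which hold other chymases. Mast cells are known residents of the mammary stroma and fat.

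Of the 9 probe sets, *Fcer1a* was higher in BN glands, and the other 8 did not pass the test in either direction. The signal of 3 of those 8, the probe sets of *Cpa3*, *Cma1* and *Mcpt1l1*, lay above 4 on the log2 scale in some or all glands of both strains, with lower means in ACI than in BN. The other 5, for *Mcpt1*, *Tpsb2*, *Ms4a2* (2 probe sets) and *Hdc*, were below 4 on all 10 arrays. A probe set with all 5 arrays of a strain below 4 is called near background in that strain. Across the array, 46.8% of probe sets were near background in both strains. A probe set was called when its adjusted p from limma, taken over all probe sets, was under 0.05. That rule called 12.7% of all probe sets, 6.79% as higher in ACI and 5.87% as higher in BN, against 0 of the 9 as higher in ACI and 1 of the 9 as higher in BN. At an unadjusted limma p under 0.05, 4 of the 9 were lower in ACI, where 24.9% of all probe sets passed in either direction and 12.0% as higher in BN. All 9 fitted differences (ACI minus BN) were below 0, the second *Ms4a2* probe set by 0.01 as deposited and by 0 after quantile normalization, and the difference was below -0.005 for 38.8% of all probe sets.

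**Figure D1:**
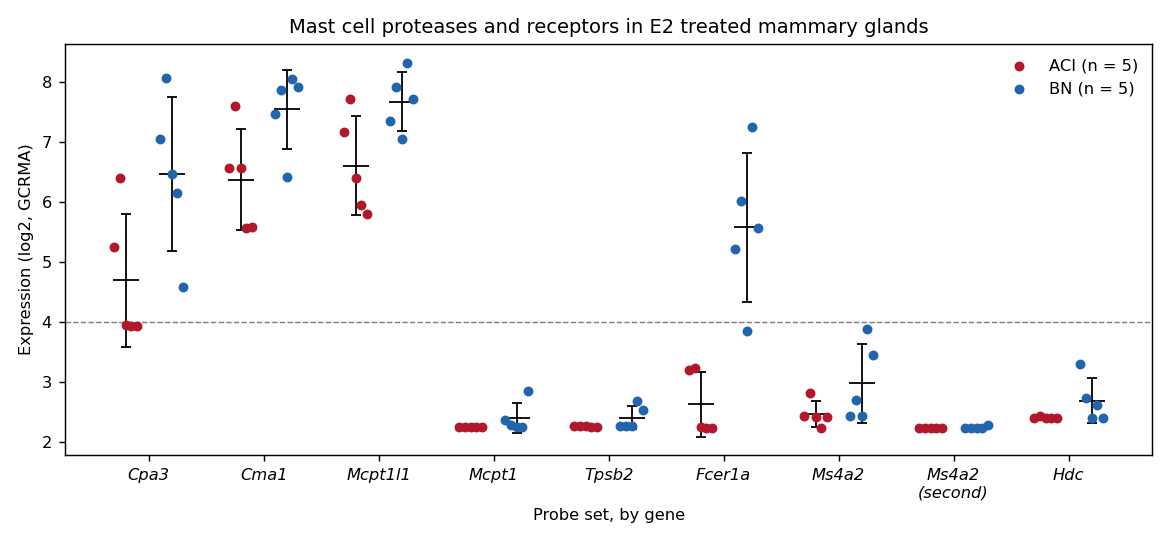
Expression (log2, GCRMA) of the 9 probe sets in each gland, with ACI rats in red on the left and BN rats in blue on the right of each pair. Points are rats, bars are the mean and SD (n = 5 per strain) and the dashed line marks the limit of 4. The 4 probe sets at the left or centre that reach above the line are *Cpa3*, *Cma1*, *Mcpt1l1* and *Fcer1a*, and *Fcer1a* is the only one of them whose strains do not overlap.

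*Cpa3* encodes mast cell carboxypeptidase A, an exopeptidase bound to proteoglycan in the granule. Its levels were 5.25, 6.40, 3.96, 3.94 and 3.94 in ACI rats 1 to 5, against 7.05, 8.08, 6.47, 6.15 and 4.58 in BN rats 1 to 5. ACI rats 3, 4 and 5 lay together just under 4, and BN rat 5 fell within the ACI range, so the strains overlapped. The means were 4.70 ± 1.11 in ACI and 6.47 ± 1.28 in BN (SD, n = 5 each), a log2 difference of -1.77 (SE 0.74, 95% interval -3.46 to -0.08). This had an unadjusted p of 0.0424 and an adjusted p of 0.18 by limma, and a p of 0.0556 by the two-sided exact permutation test over samples, whose smallest possible p here is 0.0079.

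*Cma1* encodes the chymase of connective tissue mast cells, an endopeptidase that in humans forms angiotensin II. Its levels were 6.57, 7.60, 6.57, 5.57 and 5.58 in ACI rats 1 to 5, against 7.48, 7.87, 6.43, 8.05 and 7.92 in BN rats 1 to 5. BN rat 3 was below 3 of the ACI rats, and ACI rat 2 was above BN rat 1. The log2 difference was -1.17 (SE 0.47, 95% interval -2.24 to -0.10, adjusted p = 0.161 by limma). ACI glands averaged 6.38 ± 0.85 and BN glands 7.55 ± 0.66 (SD, n = 5 each).

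*Mcpt1l1* and *Mcpt1* are closely related genes that encode beta-chymases of the rat mast cell protease family, in the same gene cluster as *Cma1* on chromosome 15. *Mcpt1l1* had levels of 7.17, 7.73, 6.40, 5.96 and 5.80 in ACI rats 1 to 5, against 7.36, 7.93, 7.06, 8.33 and 7.73 in BN rats 1 to 5. ACI rats 3, 4 and 5 were below every BN rat, while ACI rats 1 and 2 lay within the BN range. The means were 6.61 ± 0.82 in ACI and 7.68 ± 0.49 in BN (SD, n = 5 each), a log2 difference of -1.07 (SE 0.42, 95% interval -2.03 to -0.12, adjusted p = 0.151 by limma). For *Cma1* and for *Mcpt1l1* the exact permutation p was 0.0556, as for *Cpa3*. *Mcpt1* was at 2.25 in all 5 ACI rats and between 2.25 and 2.85 in BN rats, near background in both strains. Since the 2 genes share former names and the probe sequences were not used here, a signal from either transcript on the other's probe set was not tested.

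*Tpsb2* encodes a tryptase of connective tissue mast cells, a protease stored as a tetramer with heparin. It lay between 2.25 and 2.27 in ACI glands and between 2.27 and 2.68 in BN glands. These values are near background and give no fold between the strains.

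**Figure D2:**
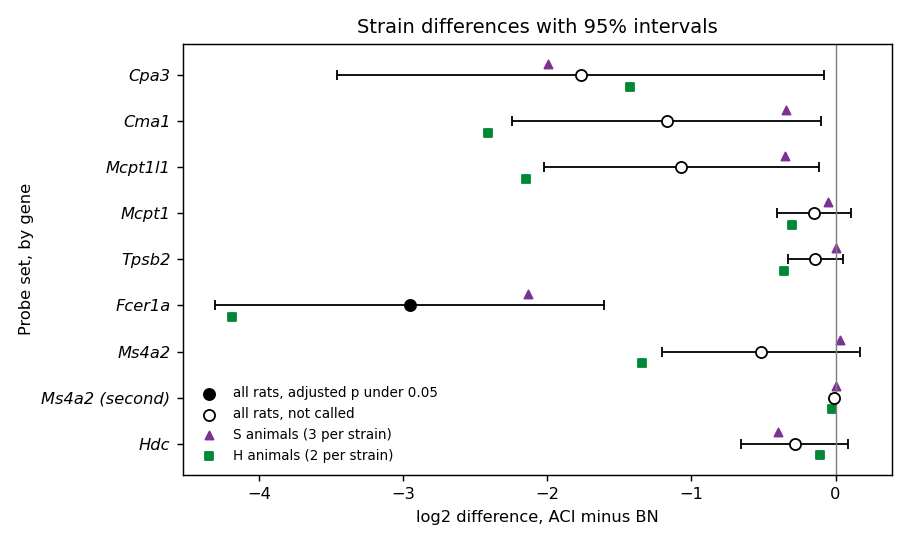
Log2 difference, ACI minus BN, of each probe set over all rats (circles, with 95% intervals; filled where the adjusted p was under 0.05), in the 3 rats per strain whose animal ID begins with S (triangles) and in the 2 per strain whose ID begins with H (squares). *Fcer1a* at -2.95 is the only filled circle. The H animals lie lower than the S animals for *Cma1*, *Mcpt1l1* and *Fcer1a*. They also lie lower for *Mcpt1*, *Tpsb2* and both *Ms4a2* probe sets, all near background, and higher for *Cpa3* and *Hdc*.

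*Fcer1a*, the chain of the receptor that binds IgE, was lower in ACI glands than in BN glands. Its levels were 3.21, 3.23, 2.25, 2.23 and 2.23 in ACI rats 1 to 5, against 5.22, 6.02, 3.85, 7.26 and 5.57 in BN rats 1 to 5. The strains did not overlap, with BN rat 3 the nearest to ACI, and ranges did not overlap for 12.3% of all probe sets (5.47% with BN higher). The means were 2.63 ± 0.54 in ACI and 5.58 ± 1.24 in BN (SD, n = 5 each), a log2 difference of -2.95 (SE 0.59, 95% interval -4.30 to -1.61, adjusted p = 0.0131 by limma), and the exact permutation p was the smallest possible. All 5 ACI values were near background, so the fold depends on the limit. With values below 4 counted as 4 in both strains, *Fcer1a* was 3.06-fold higher in BN. That also raises BN rat 3 from 3.85, so this fold is not a strict lower bound. The call held when each of the 10 rats was left out in turn (adjusted p from 0.00333 to 0.0401 by limma), but with all values floored at 4 before the fit the adjusted p was 0.0972, and with the S animals alone it was 0.131. In whole glands, fewer cells of a type and less RNA per cell cannot be told apart.

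The other chains of the IgE receptor did not pass the test. *Ms4a2*, the beta chain, which amplifies the signal, read 2.43, 2.82, 2.42, 2.23 and 2.42 in ACI rats 1 to 5, against 2.44, 2.70, 2.43, 3.89 and 3.45 in BN rats 1 to 5 on one probe set. BN rats 4 and 5 were above all other rats, yet still below 4 (adjusted p = 0.363 by limma). On the second probe set of *Ms4a2*, 9 rats read 2.23 and BN rat 5 read 2.28. *Fcer1g*, the gamma chain, which mast cells share with macrophages and other myeloid cells, had means of 10.34 ± 0.50 in ACI and 11.60 ± 0.87 in BN (SD, n = 5 each), a log2 difference of -1.26 with an adjusted p of 0.106 by limma. It passed without BN rats 4 and 5 and in 4 other settings.

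*Hdc* encodes histidine decarboxylase, which makes histamine from histidine. It read 2.40, 2.44, 2.40, 2.40 and 2.40 in ACI rats 1 to 5, against 3.30, 2.74, 2.40, 2.62 and 2.40 in BN rats 1 to 5. BN rats 1, 2 and 4 were above all ACI rats, but every value was near background (adjusted p = 0.349 by limma).

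The promoters of the 4 genes with signal above 4, and of *Mcpt1* beside its relative *Mcpt1l1*, are printed below because GATA factors and the E-box factor MITF are known regulators of mast cell genes. Each holds 250 bases, 5′ to 3′ on the gene's strand, from RefSeq on the build GRCr8, itself a BN derived genome. Each window ends just before the start annotated with these promoters. The positions are chr2:104673238-104673487 on the minus strand for *Cpa3*, chr15:33390134-33390383 on the minus strand for *Cma1*, chr15:33876896-33877145 on the minus strand for *Mcpt1l1*, chr15:33841356-33841605 on the plus strand for *Mcpt1* and chr13:88224680-88224929 on the minus strand for *Fcer1a*. The listed spans of *Cpa3* and *Fcer1a*, both on the minus strand, end at 104673253 and 88224723, within these windows. Part of each of those windows therefore lies inside the gene span. Capitals mark every match, on either strand, and no match overlapped another. The GATA motif was searched as AGATAA, as the same word ending in a different purine (AGATAG), and as the words that open with another base, namely TGATAA in its first form and, when ending differently, TGATAG. The E-box was searched as CACATG, and in its fully palindromic form as CACGTG.
Cpa3: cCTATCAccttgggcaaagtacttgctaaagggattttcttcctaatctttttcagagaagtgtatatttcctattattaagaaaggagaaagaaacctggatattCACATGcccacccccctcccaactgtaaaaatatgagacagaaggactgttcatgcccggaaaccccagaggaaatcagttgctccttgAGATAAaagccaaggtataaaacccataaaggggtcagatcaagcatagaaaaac
Cma1: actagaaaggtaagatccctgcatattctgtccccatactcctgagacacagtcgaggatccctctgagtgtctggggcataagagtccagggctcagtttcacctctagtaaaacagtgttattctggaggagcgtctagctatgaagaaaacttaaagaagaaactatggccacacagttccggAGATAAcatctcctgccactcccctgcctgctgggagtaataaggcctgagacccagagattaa
Mcpt1l1: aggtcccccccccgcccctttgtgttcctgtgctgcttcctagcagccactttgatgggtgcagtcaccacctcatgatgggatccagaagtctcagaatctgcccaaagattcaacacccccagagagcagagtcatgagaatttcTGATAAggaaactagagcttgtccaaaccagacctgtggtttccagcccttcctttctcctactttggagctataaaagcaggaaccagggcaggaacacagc
Mcpt1: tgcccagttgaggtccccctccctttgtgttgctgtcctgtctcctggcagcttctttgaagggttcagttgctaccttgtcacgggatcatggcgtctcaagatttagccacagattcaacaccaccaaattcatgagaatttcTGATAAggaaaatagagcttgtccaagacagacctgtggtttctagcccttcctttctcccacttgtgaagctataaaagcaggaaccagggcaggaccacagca
Fcer1a: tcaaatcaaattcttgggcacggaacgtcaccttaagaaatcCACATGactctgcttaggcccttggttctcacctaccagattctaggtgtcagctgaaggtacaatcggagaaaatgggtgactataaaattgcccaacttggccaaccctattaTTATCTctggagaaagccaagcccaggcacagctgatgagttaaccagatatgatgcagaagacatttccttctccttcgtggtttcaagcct

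All 5 of these promoters held a GATA match. Positions count back from the start used for each window, which for *Cpa3* and *Fcer1a* lies inside the listed gene span. The first base of a match was at -249 and -55 in *Cpa3*, -64 in *Cma1* and -103 in *Mcpt1l1*. It was at -105 in *Mcpt1* and at -93 in *Fcer1a*. The *Fcer1a* match and the one at -249 in *Cpa3* were on the other strand. A GATA match was present in 27% of 33469 RefSeq promoter windows of this length. E-box matches began at -144 in *Cpa3* and -208 in *Fcer1a*, and 17.1% of windows held one. *Tpsb2* had an E-box match at -209 and no GATA match, and *Hdc* had neither. A promoter was found for 7 of the 8 genes, and that of *Ms4a2* was not used here. The windows of *Mcpt1l1* and *Mcpt1* were identical at 201 of 262 aligned columns (76.7%), against at most 48.9% for any other pair of the 5. In both, the GATA match lies in the same stretch of shared bases. *Mcpt1l1* was above 4 in all 10 glands and *Mcpt1* was near background in all of them. The part of the promoters in these levels was not tested.

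The 4 genes with signal were also compared by how the rats of a strain varied. With each strain's mean subtracted, *Cma1* and *Mcpt1l1* had a Pearson correlation of 0.91 over the 10 arrays (Spearman 0.89). *Fcer1a* correlated at 0.78 with *Mcpt1l1* (Spearman 0.94) and 0.75 with *Cma1* (Spearman 0.90). *Cpa3* correlated at 0.52 with *Mcpt1l1* (Spearman 0.55), 0.40 with *Cma1* (0.30) and 0.24 with *Fcer1a* (0.45). The order of the 3 closest pairs differs between the 2 measures, and by both the pairs with *Cpa3* were lower. Values near the limit enter these correlations. *Fcer1a* was below 4 in all 5 ACI rats and in BN rat 3, and *Cpa3* in ACI rats 3, 4 and 5. The correlations are descriptions over arrays that share their normalization. Among 7302 other genes with a mean of at least 6, the 5 most like *Mcpt1l1* in this sense were *Dpt* (Pearson 0.942), *Fdx2* (0.915), *Rarres2* (0.907), *Grcc10* (0.904) and *Akr1b1* (0.879). *Dpt* encodes dermatopontin, a matrix protein, and *Rarres2* encodes the adipokine chemerin. Of the 5, *Rarres2* was called, averaging 8.69 in ACI glands and 10.65 in BN glands (log2 difference -1.97, adjusted p = 0.002 by limma).

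**Figure D3:**
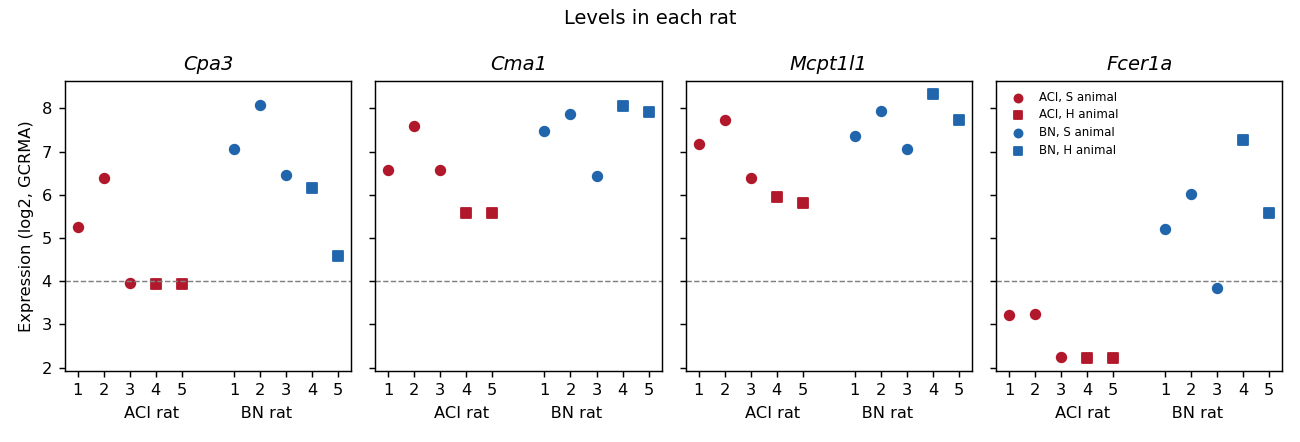
Expression (log2, GCRMA) of the 4 genes with signal above 4, with ACI rats 1 to 5 at the left (red) and BN rats 1 to 5 at the right (blue) of each panel. Circles are S animals, squares are H animals and the dashed line marks 4. ACI rats 4 and 5 are low for *Cma1* and *Mcpt1l1*, at 5.57 to 5.96, where BN rats 4 and 5 read 7.73 to 8.33.

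The sample titles carry animal IDs of 2 kinds, beginning with S for rats 1 to 3 and with H for rats 4 and 5 of each strain, with no word in the sources used here on what the letters stand for. For *Cma1* the log2 difference (ACI minus BN) was -2.41 among H animals and -0.35 among S animals. For *Mcpt1l1* it was -2.15 among H animals and -0.35 among S animals, and for *Fcer1a* -4.18 among H animals (adjusted p = 0.256 by limma) and -2.13 among S animals (0.131). *Cpa3* ran the other way, at -1.43 among H animals and -2.0 among S animals. The test of the difference between H and S animals, a limma interaction term, gave adjusted p-values of 0.181 for *Cma1*, 0.194 for *Mcpt1l1*, 0.421 for *Fcer1a* and 0.943 for *Cpa3*. That test called 2.76% of all probe sets, and among the 9 it called *Tpsb2*, whose values were all near background. The first *Ms4a2* probe set, also near background, differed by -1.345 among H animals and 0.033 among S animals (interaction adjusted p = 0.0529 by limma). Its interaction passed with centred arrays (0.0108) and after quantile normalization (0.0425), but not with trended and robust variances (0.135) or values floored at 4. That of *Tpsb2* did not pass after quantile normalization (0.223).

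Other genes of mast cell function were read from 5 lists, with 1 probe set per gene. Of 48 measured genes, 1 was higher in ACI, 14 were higher in BN and 33 were not called, with a median log2 difference of -0.07. Over all 14217 genes the shares called were 8.29% as higher in ACI and 9.12% as higher in BN. The genes of these lists are not all particular to mast cells.

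Among 6 further granule proteases, 1 was higher in ACI and the rest were not called and near background in both strains. The one was *Mcpt9*, a protease of the rat family related to *Mcpt8*. Its levels were 6.0, 6.25, 5.71, 6.30 and 5.46 in ACI rats 1 to 5, against 4.02, 4.84, 4.29, 3.68 and 4.83 in BN rats 1 to 5, with no overlap and a log2 difference of 1.61 (SE 0.27, adjusted p = 0.00589 by limma). A probe set shared by *Mcpt8*, *Mcpt8l2*, *Mcpt9* and *Mcpt10* had means of 6.46 ± 0.31 in ACI and 5.79 ± 0.35 in BN (SD, n = 5 each, log2 difference 0.66, adjusted p = 0.0765 by limma), while the probe sets of *Mcpt8* and of *Mcpt10* alone read 2.23 in every rat. The tryptase *Tpsab1* had means of 2.32 in ACI and 2.66 in BN.

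Of 12 genes of IgE receptor signalling, 7 were higher in BN and 5 were not called, with a median log2 difference of -1.05. *Btk*, a kinase that activates phospholipase C, had means of 3.43 ± 0.22 in ACI and 6.64 ± 0.66 in BN (SD, n = 5 each) and was at least 6.24-fold higher in BN (adjusted p = 0.000409 by limma). The adaptor *Lat* had means of 3.85 in ACI and 6.88 in BN, a log2 difference of -3.03 (adjusted p = 0.0302), with BN rat 3 at 4.18 inside the ACI range, and that call was lost in 9 of the 10 fits without 1 rat, BN rat 3 excepted (adjusted p up to 0.077). The adaptor *Lcp2* had a log2 difference of -2.21, the kinase *Syk* -1.95 and the lipid phosphatase *Inpp5d*, a brake on the pathway, -1.69. *Fyn* at -0.65 and *Plcg1* at -0.62 were also called. *Lyn*, the kinase that phosphorylates the receptor's beta and gamma chains, had a log2 difference of 1.30 and did not pass (adjusted p = 0.339 by limma), but it passed as higher in ACI among S animals (2.54, adjusted p = 0.0223). These genes are not particular to mast cells, since *Lat* and *Lcp2* also act in T cells, *Btk* in B cells and *Syk* in B cells and macrophages.

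Of 12 genes of mast cell growth and lineage, 2 were higher in BN and 10 were not called, with a median of -0.01. *Mitf*, a transcription factor that mast cells need and that other cells express too, had means of 7.58 ± 0.22 in ACI and 9.04 ± 0.28 in BN (SD, n = 5 each, log2 difference -1.46, adjusted p = 0.000729 by limma). *Il3ra*, a chain of a cytokine receptor of mast cells and basophils, was called (-0.77, adjusted p = 0.0486) although all of its values were below 4, and passed in 1 of the 10 fits without 1 rat, that without BN rat 4 (adjusted p up to 0.118). *Kit*, the growth factor receptor that defines mast cells, but which luminal progenitors also carry, had levels of 4.55 to 5.77 in ACI and 3.49 to 5.09 in BN, a log2 difference of 0.62 (SE 0.35, 95% interval -0.18 to 1.43, adjusted p = 0.346 by limma). Its ligand *Kitlg* differed by 0.25 and *Gata2* by 0.26, and neither was called, although *Kitlg* passed without BN rat 3 (0.37, adjusted p = 0.0398 by limma).

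Of 12 genes of granule and lipid mediators, 5 were higher in BN and 7 were not called, with a median of -0.44. Which cells carry these 5 differences was not tested, and 7 of 11 macrophage genes were also higher in BN. *Ptgds*, a prostaglandin D synthase, read 2.82 to 3.72 in ACI and 5.09 to 7.34 in BN, at least 5.26-fold higher in BN (adjusted p = 0.00356 by limma). *Ltc4s*, the synthase of leukotriene C4, had a log2 difference of -1.91 and was at least 2.35-fold higher in BN, and *Alox5ap*, the helper protein of 5-lipoxygenase, had a log2 difference of -1.87. The granule proteoglycan core *Srgn* differed by -1.50 and the granule membrane protein *Cd63* by -0.85. *Srgn* passed in 2 of the 10 fits without 1 rat, those without BN rat 3 or BN rat 5 (adjusted p up to 0.0586), and *Ltc4s* in 6, failing without ACI rat 1, 2, 3 or 4 (up to 0.0526). *Ltc4s* did not pass with values floored at 4 either (-1.23, adjusted p = 0.12 by limma), nor among S animals (0.141) or H animals (0.47) alone. *Hpgds*, the prostaglandin D synthase of hematopoietic cells, overlapped widely between strains (-0.22, SE 0.67, not called), and *Slc18a2*, which loads histamine into granules, was near background in both strains.

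None of the 6 genes of histamine breakdown and histamine receptors was called, 1 of them had an unadjusted limma p under 0.05, and 5 were near background in both strains. The 1 was *Aoc1*, a histamine degrading oxidase, with levels of 4.25 to 5.13 in ACI and 2.55 to 4.45 in BN (log2 difference 1.13, adjusted p = 0.0701 by limma). It passed as higher in ACI without BN rat 5 (1.36, adjusted p = 0.0202), without BN rats 4 and 5 (0.0277) and when dimmer probe sets, averaging under 4, were dropped (0.019).

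**Figure D4:**
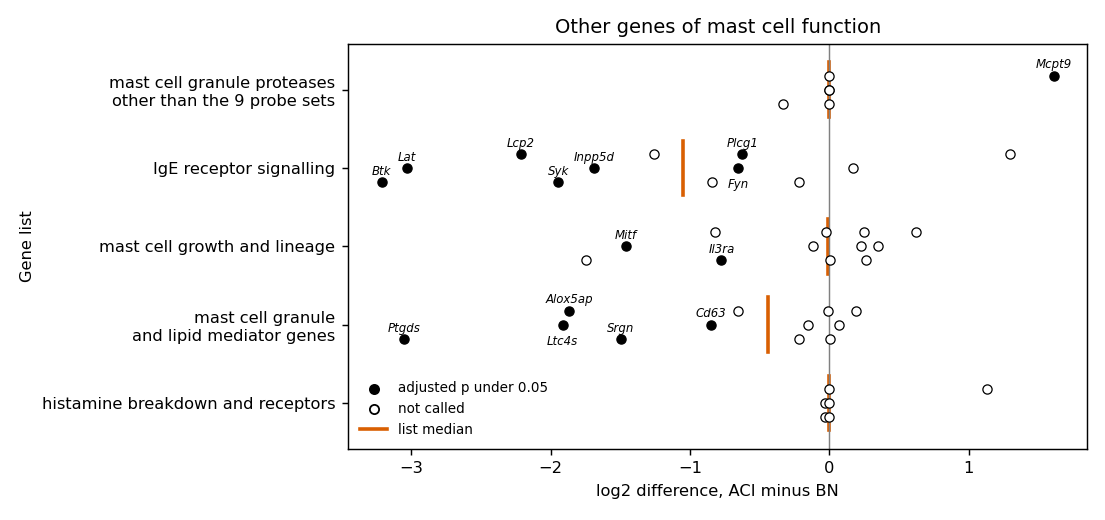
Log2 difference, ACI minus BN, of the 48 measured genes of mast cell function in 5 lists. Filled points had an adjusted p under 0.05 and are named, open points did not, and the orange bar is the list's median. *Mcpt9* at 1.61 is the filled point right of 0 and the other 14 lie left of 0, 7 of them in the IgE receptor signalling list.

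Markers of other cells that the gland can hold moved with strain beside these genes. Higher in BN were 7 of 11 macrophage genes, 2 of 4 dendritic cell genes, 4 of 4 B cell genes, 3 of 6 plasma cell genes (with 1 higher in ACI), 5 of 10 T cell genes and 2 of 6 neutrophil genes. Of the 6 neutrophil genes, 3 were near background in both strains. The mean level of the macrophage list was 7.44 to 7.87 in ACI and 8.59 to 9.31 in BN, that of the B cell list 2.26 to 2.37 in ACI and 2.35 to 8.97 in BN, and that of the T cell list 4.91 to 5.27 in ACI and 5.33 to 7.93 in BN. BN rat 3, which had the lowest *Fcer1a* of its strain, also had the lowest B cell and T cell means of its strain and the highest macrophage mean. The other BN rats did not share 1 order. *Fcer1a* was highest in BN rat 4 (7.26), the B cell mean in BN rat 5 (8.97) and the T cell mean in BN rat 1 (7.93). The B cell count was 0 when any rat other than BN rat 3 was left out. Over the 10 fits without 1 rat the T cell count ran from 3 to 7, that of neutrophil genes from 1 to 3 and that of dendritic cell genes from 1 to 2, the last 2 being 1 when an ACI rat or BN rat 1, 2 or 3 was left out. Some uncalled genes of the macrophage and T cell lists leaned to ACI. Over the same fits the count called as higher in ACI ran from 0 to 1 in each of these lists. Of 3 measured basophil genes, 1 was called, the *Il3ra* above, and all were near background. Of 7 eosinophil genes, 1 was higher in ACI and 1 in BN, with list means of 4.16 to 4.72 in ACI and 4.53 to 5.02 in BN. Of these 7 genes, 3 were near background in both strains, so the means rest mainly on the other 4. The part of these cells in the differences of *Fcer1a* and of the signalling and mediator genes was not tested.

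Of the gland's structural cells, 5 of 8 luminal genes were higher in ACI, with list means of 12.13 to 12.61 in ACI and 11.39 to 12.06 in BN, so the labelled tissue's markers were present in every sample. Higher in BN were 2 of 7 fibroblast genes, 3 of 6 endothelial genes and 1 of 6 adipocyte genes, and 0 of 6 basal genes and 0 of 7 skeletal muscle genes were called, although the muscle list ran from 7.49 to 11.71 in ACI and from 4.54 to 10.84 in BN. Over the 10 fits without 1 rat the fibroblast count ran from 1 to 5 (5 without BN rat 5), the endothelial count from 2 to 4 and the adipocyte count from 0 to 3 (3 without ACI rat 1). Without BN rat 3, 2 basal genes were higher in ACI, and without BN rat 5, 1 muscle gene was. Array medians lay between 3.35 and 3.53, and 30.6% to 33.3% of probe sets on an array stood at the lowest value. BN rats 4 and 5 stood apart from the other BN rats on the second principal component. Without them, *Fcer1a* remained called (log2 difference -2.40, adjusted p = 0.0246 by limma) and the other 8 probe sets were still not called.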

How the data were processed

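Total RNA of 10 glands was labelled and hybridized by the authors, and the deposited values are log2 expression per probe set, which the submitters' processing notes credit to GCRMA 2.18.1. No source used here says whether all arrays were normalized together. In the BN samples the protocol for RNA speaks of ACI rats, while the strain field gives Brown Norway, which was followed. The values were used as deposited. Of 31099 probe sets, 57 controls were dropped. Gene symbols come from the platform annotation, updated through gene IDs from RefSeq: 20826 probe sets had 1 symbol, 436 had several and 9780 had none. The strain effect was fitted in limma 3.58.1 (R 4.3.3) without covariates, with Benjamini-Hochberg adjustment over 31042 probe sets. The fit was tested on simulated data. The exact test takes all 252 arrangements of rats. Alternatives were a replicate block, the ID series as a block or each alone, a filter or floor at 4, quantile normalization, centring, trended and robust variances, the methods' t-test, limits of 3 and 5, and leaving out each rat. BN rats 4 and 5 were left out together after seeing the data. A gene in a list is read from its probe set with the highest mean. The rule for named genes takes all members, the called list genes of mast cell function, and the 5 genes most like the member of highest mean. Single genes of the lists for other cells are not given. *Fcer1g*, *Lyn*, *Kit*, *Kitlg*, *Gata2*, *Tpsab1*, *Hpgds*, *Slc18a2* and *Aoc1* lie outside that rule and were picked with their values in view. The members and lists were chosen with earlier results of these data known. The rats of a strain are separate animals, and their number limits the precision. The sample records of ACI and of BN form separate numbered runs, so a batch that followed strain could not be told apart from strain.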

Additional observations from a re-analysis of the deposited data

Results flagged for a closer look

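Among 16 groups of 5 rats that held more than 1 value, 3 had a rat far from the others of its strain. The limit used is passed in about 1 in 20 groups of normally distributed values. Tied values at the floor are not so distributed, so that rate is no measure of excess here. BN rat 5 read 2.85 for *Mcpt1*, BN rat 5 read 2.28 on the second *Ms4a2* probe set, and ACI rat 2 read 2.44 for *Hdc*. All of these lie below 4, near background. For *Hdc* and the second *Ms4a2* probe set the other rats of the strain all read the same value. For *Tpsb2*, the log2 difference (ACI minus BN) among H animals minus that among S animals was -0.355 (adjusted p = 0.0311 by limma), again with every value below 4. The strain difference of *Tpsb2* itself was not called.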

How the results depend on the processing

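The *Fcer1a* difference (ACI minus BN) was below 0 in all 21 alternatives and passed in 17 of them, including each of the 10 fits without 1 rat. It did not pass among H animals alone (-4.18, adjusted p = 0.256 by limma), among S animals alone (-2.13, 0.131), with values floored at 4 (-1.61, 0.0972) or with the replicate number as a block (-2.95, 0.0653), so the count of the 9 probe sets called as higher in BN was 0 in these 4 settings. Fewer rats in the first pair and the raised ACI values in the third follow from how those settings are built. For *Cpa3*, *Cma1* and *Mcpt1l1* the difference was below 0 and not called in all 21 alternatives, with adjusted p-values of at least 0.0501. *Ms4a2* turned to 0.03 among S animals, and the uncalled list genes *Lyn* turned to -0.57 and *Gata2* to -0.15 among H animals, while *Hpgds* ran from -0.69 to 0.09 without 1 rat, above 0 without ACI rat 1 (0.06), BN rat 1 (0.09) or BN rat 4 (0.04).

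Same-numbered rats correlated between -0.255 and 0.226 in their deviations, and 0 of 5 ACI rats matched its own number best. These correlations gave no sign that the replicate numbers of the titles pair the rats, but they cannot exclude a pairing. With the block the calls of *Mcpt9*, *Lat*, *Fyn*, *Il3ra*, *Ltc4s*, *Alox5ap* and *Srgn* were lost, and 1040 probe sets were called as higher in ACI and 886 as higher in BN, where 2108 and 1822 were called without it. The same counts were 45 in ACI and 55 in BN among H animals, and the BN count was 2783 among S animals, 2807 with arrays centred on expressed probe sets and 3768 without BN rats 4 and 5, an alternative chosen after seeing the data. Without 1 rat they ran from 1422 to 2118 in ACI and from 1176 to 2500 in BN, with the BN count lowest without ACI rat 4 (1176) and ACI rat 3 (1213). The methods' t-test at its unadjusted threshold called 4 of the 9 as higher in BN, and 3870 probe sets as higher in ACI and 3564 as higher in BN. After Benjamini-Hochberg it called 1 of the 9, with 1937 in ACI and 1658 in BN. The paper made its own array calls at a false discovery rate, and the unadjusted threshold is its general one.

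Of the 48 mast cell function genes, the count higher in ACI was 0 among H animals and with the block, and 2 among S animals, without BN rats 4 and 5, with a mean of at least 4 and after quantile normalization. The count higher in BN was 0 among H animals, 7 among S animals and 8 with the block. Without 1 rat these ran from 1 to 2 in ACI and from 10 to 13 in BN. With a limit of 3, 3 of the 9 probe sets were near background in BN. The test between H and S animals called 3 of the 9 with centred arrays, 0 with a mean of at least 4, with trended and robust variances or with values floored at 4, and 0 to 4 without 1 rat. Signal close to background limits what can be said of the 5 probe sets below 4, and the cause of the other changes was not tested.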
